A study of Mus musculus with 12 samples.

Results

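Expression of 9 genes linked to fetal-like repair and to tumour epithelium, Ly6a, Anxa1, Clu, Cd44, Sox9, Ccnd1, Myc, Sox4 and Prox1, was followed in RNA sequencing of mouse colorectal tissue. The genes were taken by symbol from a count table of 18514 genes, and all 9 had enough reads to be among the 15484 genes tested. The 12 libraries fell into 4 groups of 3, all from male C57BL/6 mice bought at 4 weeks of age, whose age at sampling was not given in the sources used here. Ctrl mice drank ordinary water and did not swim. Ctrl_Swim mice drank ordinary water and swam for up to 90 min per day, beginning 2 months ahead of the AOM injection and going on to the end. Model mice were injected once with the carcinogen azoxymethane (AOM), at 10 mg/kg, and were afterwards given 3 rounds of dextran sulfate sodium (DSS), an agent that causes colitis, at 2% in the drinking water for 7 days, with 2 weeks of water after each. Model_Swim mice received the same AOM/DSS course and swam as the Ctrl_Swim mice did. Mice that did not swim were placed in shallow warm water. The colon was taken from the caecum to the rectum, and how much tumour the sequenced pieces held was not given in the sources used here. The labels do not say whether the 3 libraries of a group came from 3 mice, so that p-values measure the spread among these libraries.

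After injury the colon epithelium is known to pass through a repair state that resembles fetal intestine. In it the transcriptional coactivator YAP and its partners, transcription factors of the TEAD family, are active. Ly6a, which encodes the surface protein Sca-1, Anxa1, which encodes annexin A1, and Clu, which encodes the secreted chaperone clusterin, are commonly used as markers of that state. In the resting crypt and in intestinal tumours, Wnt ligands or a lost brake on beta-catenin switch on target genes through factors of the TCF/LEF family. Cd44, a hyaluronan receptor, Sox9 and Sox4, transcription factors of crypt cells, Ccnd1, which encodes cyclin D1, Myc, a growth regulator, and Prox1, a homeobox factor switched on in colon tumours, are among the genes tied to that programme. None of the 9 is made by epithelium alone. In bulk tissue, more cells of a type and more RNA per cell cannot be told apart.

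Total counts per library lay between 17256953 and 19451055. Every one of 10 marker genes of colon epithelium had reads in every library, with a summed level of 10371 to 14846 CPM (counts relative to the library's total, scaled by the trimmed mean of M-values, TMM). Libraries Model 1 and Model 3 stood apart. In them 12 marker genes of pancreatic acinar cells summed to 47390 and 23189 CPM, against 82.3 to 167 CPM in the other libraries, Model 2 included. A set of 12 marker genes of squamous epithelium summed to 9.68 to 103 CPM in Ctrl 1 to 3, Ctrl_Swim 2 and 3 and Model 3, to 172 CPM in Model_Swim 1, and to 831 to 2014 CPM in Ctrl_Swim 4, Model 1, Model 2 and Model_Swim 2 and 3. The squamous genes Sprr3, Dsg3 and Trp63 were at a count of 0 in at least 1 of these low libraries. Values without Model 1, without Model 3 or without both stand beside several of the results below, and these settings were chosen after the data were seen for the lists of marker and programme genes.

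Start regions of the RefSeq genome build GRCm38.p6, 300 bases from 250 before to 50 after the gene's start, were at hand for 4 of the 9 genes. They are shown for the gene that varied most, Prox1, and for Anxa1 and Sox4, whose start regions held a TEAD motif. Each is written 5′ to 3′ on the gene's strand, and capitals mark a match to the TEAD motif GGAATG or, read on the other strand, CATTCC.
Anxa1, chr19:20390622-20390921, minus strand: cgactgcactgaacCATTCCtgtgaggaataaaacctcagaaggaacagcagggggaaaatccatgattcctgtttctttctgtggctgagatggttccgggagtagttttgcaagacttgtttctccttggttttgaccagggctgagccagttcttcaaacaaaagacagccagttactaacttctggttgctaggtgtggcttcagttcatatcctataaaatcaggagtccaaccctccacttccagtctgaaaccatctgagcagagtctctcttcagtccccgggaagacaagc
Sox4, chr13:28953650-28953949, minus strand: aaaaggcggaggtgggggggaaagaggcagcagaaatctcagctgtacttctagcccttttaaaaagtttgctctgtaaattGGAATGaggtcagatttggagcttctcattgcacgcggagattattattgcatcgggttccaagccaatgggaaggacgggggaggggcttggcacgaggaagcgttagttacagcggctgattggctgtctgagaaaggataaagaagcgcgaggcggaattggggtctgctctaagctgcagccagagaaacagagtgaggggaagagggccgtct
Prox1, chr1:190170778-190171077, minus strand: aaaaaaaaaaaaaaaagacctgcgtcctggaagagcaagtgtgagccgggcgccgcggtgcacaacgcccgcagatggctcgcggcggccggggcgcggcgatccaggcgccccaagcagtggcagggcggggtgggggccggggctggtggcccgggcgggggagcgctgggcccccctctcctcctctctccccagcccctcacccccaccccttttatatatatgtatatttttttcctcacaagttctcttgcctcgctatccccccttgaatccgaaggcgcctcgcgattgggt
The match in Anxa1 started 236 bases before the gene's start and the match in Sox4 started 168 bases before it. Of 32851 start regions of this length, 14.7% held the TEAD motif, 16% held the TCF/LEF motif CTTTGA and 7.81% held the AP-1 motif TGANTCA, each searched on both strands. No TCF/LEF or AP-1 match was found in the start regions of Anxa1, Sox4, Cd44 or either of the 2 listed for Prox1, and Cd44 and Prox1 held no TEAD match. Guanine and cytosine made up 47.3% of the Anxa1 region, 52% of the Sox4 region and 64.3% of the Prox1 region shown. Ly6a, Clu, Sox9, Ccnd1 and Myc had no entry.

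Levels per gene length were compared on the authors' FPKM scale. In Ctrl tissue Ly6a was the most abundant, at 144 ± 6.79 FPKM (SD, n = 3), followed by Anxa1 at 78.2 ± 7.53 FPKM. Ccnd1 (33.7 ± 1.67 FPKM) and Clu (29.2 ± 4.72 FPKM) came next, and their libraries overlapped. Cd44 stood at 17.3 ± 0.930 FPKM, and Myc, Sox4 and Sox9 at means of 13.5 to 14.9 FPKM with overlapping libraries. Prox1 was the scarcest, at 1.17 ± 0.0600 FPKM. In Model tissue the order of the first 3 was Ly6a at 340 ± 90.7, Anxa1 at 236 ± 145 and Clu at 104 ± 52.5 FPKM, the libraries of neighbours in that order overlapping. Clu thus passed Ccnd1, which stood at 34.5 ± 7.70 FPKM. Prox1 remained last at 9.14 ± 12.2 FPKM, with a spread larger than its mean.

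**Figure D1:**
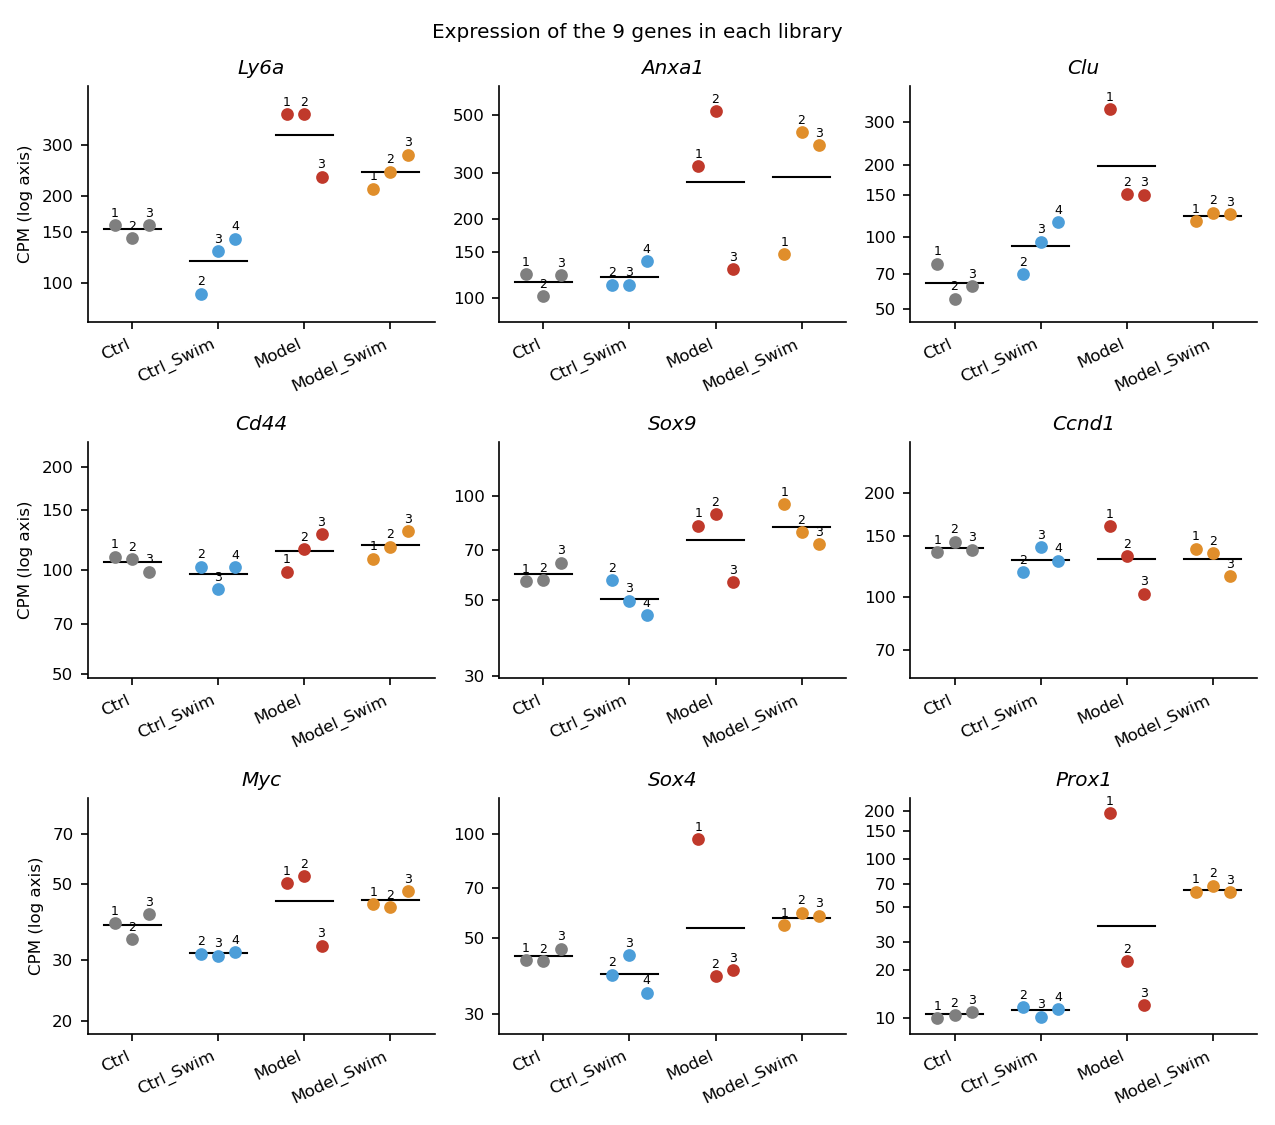
Level of each of the 9 genes in CPM (log axes with a separate range for each gene) in the 12 libraries, with a point and its number for each library and a line at the geometric mean of each group of 3. Ly6a, Clu and Prox1 lie above all 6 untreated libraries in all 6 AOM/DSS libraries, and Prox1 reaches 194 CPM in Model 1 against 12.1 CPM in Model 3, just above the 11.7 CPM of Ctrl_Swim 2.

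The first comparison asked what AOM/DSS did in mice that did not swim. Ly6a, Anxa1, Clu and Prox1 rose in Model against Ctrl, and each rose by more than 2-fold. The other 5 genes did not pass the test. A gene was called changed at an adjusted p under 0.05 in edgeR's quasi-likelihood test, adjusted by Benjamini-Hochberg over all genes tested. Among all genes tested 32.7% were changed in this comparison and 16.5% were changed and higher, and 6.21% were higher and also past the study's fold cutoff of 2, as all 4 of these genes were. The Model libraries lay above all Ctrl libraries for the same 4 genes, which was the case for 21% of all genes tested. The median log2 fold change over the 9 genes was 0.41, against 0.01 over all genes.

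Among the repair markers, Ly6a (chr15:74994877-74998031 in GRCm38.p6, as for all positions here) stood at 158, 143 and 158 CPM in Ctrl 1 to 3 and at 91.8, 129 and 142 CPM in Ctrl_Swim 2 to 4. In the AOM/DSS libraries it stood at 383, 383 and 233 CPM in Model 1 to 3 and at 212, 242 and 278 CPM in Model_Swim 1 to 3. All 6 AOM/DSS libraries were therefore above all 6 untreated ones, with Model 3 the lowest of the Model group. Sca-1 is also made by leukocytes and endothelium. The log2 fold change of Model against Ctrl was 1.12 (SE 0.20, adjusted p = 0.00270), and it kept its call under all 24 other settings, with a log2 fold change between 0.80 and 1.33.

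Anxa1 (chr19:20373434-20390671), which encodes an anti-inflammatory phospholipid-binding protein, stood at 123, 102 and 123 CPM in Ctrl 1 to 3 and at 113, 113 and 139 CPM in Ctrl_Swim 2 to 4. Model 1 to 3 held 319, 516 and 129 CPM, and Model_Swim 1 to 3 held 147, 429 and 384 CPM. The AOM/DSS libraries thus fell into 4 high ones and 2, Model 3 and Model_Swim 1, that lay near the untreated libraries. The log2 fold change of Model against Ctrl was 1.47 (SE 0.45, adjusted p = 0.0291). Without Model 2 it was 0.98 (adjusted p = 0.122), and without any 1 of the Ctrl libraries the adjusted p lay between 0.0708 and 0.0942. Over all 24 other settings the adjusted p lay between 0.00274 and 0.447.

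Squamous epithelium also makes annexin A1, and the 4 libraries highest in Anxa1 were the 4 AOM/DSS libraries with 1021 to 2014 CPM of the 12 squamous marker genes. Model 3, with 28.2 CPM of squamous genes, and Model_Swim 1, with 172 CPM, were the 2 AOM/DSS libraries low in Anxa1. Ctrl_Swim 4 held 831 CPM of squamous genes and 139 CPM of Anxa1. With the squamous level as a covariate, the log2 fold change of Anxa1 in Model against Ctrl was 0.45 (edgeR, adjusted p = 0.447). Of the 12 squamous genes, 10 rose in Model against Ctrl and none fell, with a median log2 fold change of 7.20, among them Krt6a and Krt13, keratins of squamous epithelium, at 80.8 ± 87.6 and 104 ± 125 CPM in Model (SD, n = 3) against 0.311 ± 0.168 and 0.476 ± 0.140 CPM in Ctrl. DESeq2 called 12 of these genes and limma on log2(FPKM + 1) called 1. The part of squamous tissue in the result for Anxa1 was not tested beyond these values.

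Clu (chr14:65968483-65981548) stood at 77.6, 55.5 and 62.6 CPM in Ctrl 1 to 3 and at 69.9, 95.8 and 115 CPM in Ctrl_Swim 2 to 4. In Model 1 to 3 it stood at 340, 151 and 150 CPM, and in Model_Swim 1 to 3 at 117, 127 and 125 CPM. Every AOM/DSS library was above every untreated one, although Model_Swim 1 and Ctrl_Swim 4 nearly met, and Model 1 was more than 2-fold above the rest. The log2 fold change of Model against Ctrl was 1.71 (SE 0.30, adjusted p = 0.00239), it kept its call under all 24 other settings, and it was 1.22 without Model 1 (adjusted p = 0.00191).

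Clusterin is also abundant in follicular dendritic cells, which build the follicles of lymphoid tissue. Of 5 marker genes of these cells and follicles, 4 rose in Model against Ctrl and none fell, including Cr2, which encodes complement receptor 2, at 19.9 ± 1.13 CPM in Model against 5.50 ± 2.89 CPM in Ctrl (adjusted p = 0.0186). The summed level of the 5 genes was 61.1, 62.1 and 66.8 CPM in Model 1 to 3. In Model_Swim 1 to 3 it was 32.0, 42.1 and 25.9 CPM. It was 33.3, 19.6 and 25.6 CPM in Ctrl 1 to 3. Ctrl_Swim 2 to 4 held 22.2, 40.1 and 55.0 CPM. The part of these cells and follicles in the result for Clu was not tested.

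Of the genes tied to Wnt signalling and tumours, Prox1 (chr1:190118035-190170827) had the largest estimate. It stood at 9.99, 10.5 and 10.9 CPM in Ctrl 1 to 3 and at 11.7, 10.3 and 11.4 CPM in Ctrl_Swim 2 to 4. The Model libraries 1 to 3 held 194, 22.8 and 12.1 CPM, and the Model_Swim libraries 1 to 3 held 62.4, 68.3 and 61.8 CPM. Model 1 was 17.8-fold above the geometric mean of the 6 untreated libraries and Model 3 only 1.12-fold above it. The 3 Model_Swim libraries were 5.68-fold to 6.27-fold above it. The levels rest on 181 to 224 reads per untreated library and on 211 to 3614 reads per AOM/DSS library.

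The log2 fold change of Prox1 in Model against Ctrl was 2.86 (SE 0.80, adjusted p = 0.0195). Without Model 1 it was 0.75 (adjusted p = 0.0196), and without Model 1 and Model 3 it was 1.10 (adjusted p = 0.000253, with Model 2 as the only Model library). The call was lost in 10 of 24 other settings, over which the adjusted p lay between 0.000253 and 0.424. Among them were fits without any 1 of the Ctrl libraries (adjusted p of 0.0630 to 0.0661), with the acinar level as a covariate (log2 fold change 1.07, adjusted p = 0.424) and with the squamous level as a covariate (1.75, adjusted p = 0.253).

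Lymphatic endothelium and enteroendocrine cells also use Prox1. Over 6 marker genes of lymphatic endothelium, 2 rose in Model against Ctrl, Ccl21a, a chemokine, and Pdpn, which encodes podoplanin, and none fell, and without Model 1 and Model 3 Pdpn alone rose. Their summed level was 286 to 314 CPM in the Model libraries and 276 to 328 CPM in the Model_Swim libraries, while Prox1 spanned 16.0-fold among the Model libraries. None of 6 enteroendocrine genes changed in Model against Ctrl by edgeR (2 at an unadjusted p under 0.05, 1 changed by DESeq2 and 0 by limma, and 2 lower by edgeR without Model 3), and their sum was 225 to 435 CPM in Model against 410 to 546 CPM in Ctrl. The part of both cell types in the result for Prox1 was not tested. An antisense RNA gene, Prox1os, overlaps Prox1, and whether reads were counted by strand was not given in the sources used here.

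Sox4 (chr13:28948919-28953699), a factor of progenitor cells, stood at 43.1, 42.8 and 46.6 CPM in Ctrl 1 to 3 and at 39.1, 44.5 and 34.7 CPM in Ctrl_Swim 2 to 4. It stood at 96.8, 38.8 and 40.4 CPM in Model 1 to 3 and at 54.4, 59.2 and 58.0 CPM in Model_Swim 1 to 3. Model 1 alone was high in the Model group, and Model 2 and Model 3 lay below every Ctrl library. The 3 Model_Swim libraries lay above all 6 untreated libraries. Model exceeded Ctrl by 0.41 on the log2 scale (SE 0.28, adjusted p = 0.279), and without Model 1 it was -0.14 (adjusted p = 0.262). Sox4 is overlapped by the antisense gene Gm26735.

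Sox9 (chr11:112782210-112787757), a factor of crypt base cells, stood at 56.8, 57.0 and 64.2 CPM in Ctrl 1 to 3 and at 57.0, 49.7 and 45.1 CPM in Ctrl_Swim 2 to 4. Its levels in Model 1 to 3 were 82.2, 88.8 and 56.4 CPM, and those in Model_Swim 1 to 3 were 94.7, 78.7 and 72.6 CPM. With Model 3 set aside, the AOM/DSS libraries were all above the untreated ones. The estimate of Model against Ctrl was 0.35 on the log2 scale (SE 0.16, adjusted p = 0.108), and without Model 3 it was 0.54 (adjusted p = 0.00677, within a range over 24 other settings of 0.00677 to 0.518).

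Myc (chr15:61985341-61990361) stood at 38.5, 34.6 and 40.8 CPM in Ctrl 1 to 3 and at 31.3, 30.9 and 31.6 CPM in Ctrl_Swim 2 to 4. Model 1 to 3 held 50.2, 52.7 and 33.1 CPM of Myc, and Model_Swim 1 to 3 held 43.6, 42.9 and 47.7 CPM. Here too Model 3 was the only AOM/DSS library that was not above all untreated ones. For Model against Ctrl the log2 fold change was 0.26 (SE 0.14, adjusted p = 0.185), and without Model 3 it was 0.45 (adjusted p = 0.00193, within a range over 24 other settings of 0.00193 to 0.994).

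Cd44 and Ccnd1 varied least between the groups. Cd44 (chr2:102811141-102901669) stood at 110, 108 and 99.1 CPM in Ctrl 1 to 3, at 103, 88.4 and 102 CPM in Ctrl_Swim 2 to 4, at 99.1, 115 and 127 CPM in Model 1 to 3 and at 108, 117 and 130 CPM in Model_Swim 1 to 3. The Model and Ctrl libraries overlapped, with a log2 fold change of 0.11 and a 95% interval from -0.11 to 0.34 (edgeR, adjusted p = 0.420). Counts per gene do not separate the splice forms of Cd44, some of which mark tumour cells.

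Ccnd1 (chr7:144929931-144939831) stood at 135, 145 and 137 CPM in Ctrl 1 to 3, at 118, 139 and 127 CPM in Ctrl_Swim 2 to 4, at 160, 131 and 102 CPM in Model 1 to 3 and at 138, 134 and 115 CPM in Model_Swim 1 to 3. It was the only one of the 9 genes with an estimate below 0 in Model against Ctrl, at -0.08 on the log2 scale with a 95% interval from -0.38 to 0.22 (adjusted p = 0.674). The highest and the lowest of all 12 levels of Ccnd1 were both in the Model group. Ccnd1 is overlapped on the other strand by the protein-coding gene LTO1, which had no row of its own in the counts.

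**Figure D2:**
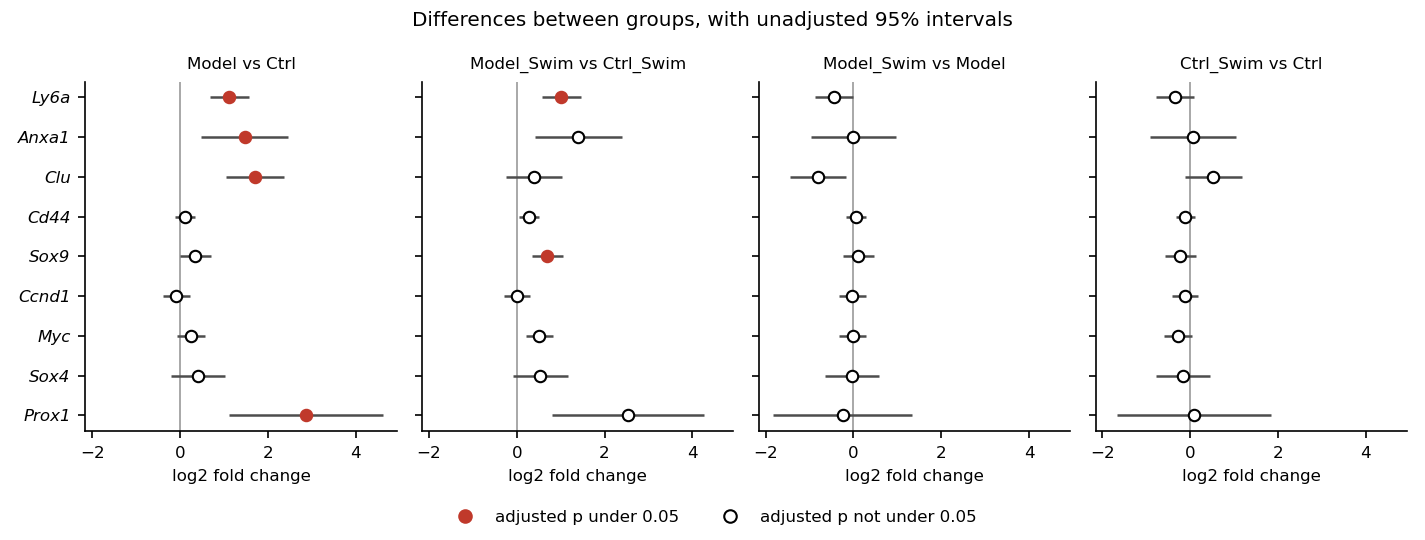
Log2 fold change of each gene (x axes, 95% intervals not adjusted for the number of genes) in 4 comparisons between groups of 3 libraries, with filled points at an adjusted p under 0.05. In Model against Ctrl 4 genes are filled, in Model_Swim against Ctrl_Swim 2, and in both comparisons of swimming none.

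The effect of AOM/DSS was also read among swimming mice. Ly6a and Sox9 rose in Model_Swim against Ctrl_Swim, with log2 fold changes of 1.01 (SE 0.20, adjusted p = 0.0219) and 0.70 (SE 0.16, adjusted p = 0.0350). The call of Ly6a was lost without Ctrl_Swim 2 or 3 or Model_Swim 2 or 3 (adjusted p of 0.0696 to 0.0844), and that of Sox9 without any 1 of the Ctrl, Ctrl_Swim or Model_Swim libraries (0.0546 to 0.131). Of all genes tested 5.18% were changed in this comparison and 3.49% were changed and higher, and 0.924%, Ly6a among them, were higher and past the fold cutoff. The Model_Swim libraries were above all Ctrl_Swim libraries in 8 of the 9 genes, all but Ccnd1, against 15.9% of all genes.

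Prox1 had the largest log2 fold change in this comparison too, 2.52 (SE 0.79), with a mean of 64.2 ± 3.59 CPM in Model_Swim against 11.1 ± 0.774 CPM in Ctrl_Swim, and did not pass at an adjusted p of 0.0897. The fit shares 1 estimate of a gene's spread among the 4 groups, so that the wide Model libraries enter this test. In an edgeR fit of only the Ctrl_Swim and Model_Swim libraries, 1289 of 15014 genes tested were changed. The adjusted p of Prox1 in that fit was 8.83e-06, and 6 of the 9 genes were changed, Ly6a, Anxa1, Sox9, Myc, Sox4 and Prox1. The estimates of the others were 1.40 for Anxa1 (adjusted p = 0.0986), 0.54 for Sox4 (0.293), 0.51 for Myc (0.0635), 0.39 for Clu (0.474), 0.28 for Cd44 (0.142) and 0.0078 for Ccnd1 (0.982) when all 4 groups were fitted.

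Averaged over both swimming states, 6 AOM/DSS libraries against 6, Ly6a, Anxa1, Clu, Sox9, Myc and Prox1 rose. The log2 fold changes were 1.07 (SE 0.14, adjusted p = 0.000473) for Ly6a, 1.44 (SE 0.32, 0.00639) for Anxa1 and 1.05 (SE 0.21, 0.00366) for Clu. They were 2.69 (SE 0.56, 0.00457) for Prox1, 0.53 (SE 0.11, 0.00543) for Sox9 and 0.39 (SE 0.10, 0.0138) for Myc. Among all genes tested 33.4% were changed, 17% were changed and higher, and 3.54% were higher and past the fold cutoff, as Ly6a, Anxa1, Clu and Prox1 were. Only Ly6a, Clu and Prox1 had all 6 AOM/DSS libraries above all 6 untreated ones, which 5.97% of all genes had. Prox1 did so narrowly, with 12.1 CPM in Model 3 against 11.7 CPM in Ctrl_Swim 2. Cd44 (0.20, adjusted p = 0.0586), Sox4 (0.47, 0.0878) and Ccnd1 (-0.04, 0.799) did not pass. Cd44 passed without Ctrl_Swim 4, Model 1 or Model_Swim 1 (adjusted p of 0.0157 to 0.0474), and Sox4 without any 1 of the Model libraries (0.0298 to 0.0371). Both also passed with DESeq2 (adjusted p of 0.0302 for Cd44 and 0.0371 for Sox4), and Cd44 passed in edgeR with DESeq2 size factors (0.0494) and in the 3 limma fits on FPKM (0.0333 to 0.0448). With the squamous level as a covariate Ly6a and Clu were the 2 genes that kept their call.

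The next question was whether swimming altered the 9 genes in mice given AOM/DSS. None of them changed in Model_Swim against Model by edgeR, DESeq2 or limma, while 0.071% of all genes tested did by edgeR. At an unadjusted p under 0.05 were 2 of the 9, Clu and Ly6a, and 13.6% of all genes. Clu had a mean of 123 ± 5.18 CPM in Model_Swim against 214 ± 110 CPM in Model, a log2 difference of -0.80 (SE 0.29, adjusted p = 0.277 by edgeR). It was the only one of the 9 genes whose Model_Swim and Model libraries did not overlap, as 16.9% of all genes did not, and without Model 1 the difference was -0.30 (adjusted p = 0.481, within a range over 24 other settings of 0.0771 to 0.979). Ly6a had a mean of 244 ± 32.9 CPM against 333 ± 86.6 CPM, a log2 difference of -0.45 (SE 0.20, adjusted p = 0.356). Without Model 3 the difference of Ly6a was -0.64 (adjusted p = 0.0418, within a range of 0.0418 to 0.614).

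The signs of Prox1 and Sox4 in Model_Swim against Model changed with the libraries and the fit. Each gene kept its sign in 17 of 24 other settings. Over these settings the estimate ran from -0.76 to 2.19 for Prox1 and from -0.28 to 0.92 for Sox4. The log2 difference of Prox1 between Model_Swim and Model was -0.25 with a 95% interval from -1.83 to 1.34 (edgeR, adjusted p = 0.912), since the Model_Swim libraries lay between Model 1 and Model 2. Without Model 1 the estimate was 1.87, higher in Model_Swim (adjusted p = 0.0126). That of Sox4 was -0.04 with all libraries (adjusted p = 0.969) and 0.53 without Model 1 (adjusted p = 0.0784). The differences of Anxa1, Cd44, Sox9, Ccnd1 and Myc lay between -0.03 and 0.11. The 95% intervals ran from -0.98 to 0.96 for Anxa1, from -0.17 to 0.28 for Cd44 and from -0.33 to 0.28 for Ccnd1.

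Swimming alone changed none of the 9 genes in Ctrl_Swim against Ctrl by edgeR, DESeq2 or limma, at an unadjusted p under 0.05 either, against 0.969% changed and 17.6% at an unadjusted p under 0.05 among all genes tested. The Ctrl_Swim libraries lay below all Ctrl libraries in Ly6a, with a log2 difference of -0.34 (adjusted p = 0.390), and in Myc, with -0.28 (adjusted p = 0.333), while 27.4% of all genes had no overlap in either direction. Clu had the largest estimate, 0.52 (adjusted p = 0.372), with overlapping libraries.

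The interaction of swimming with AOM/DSS, which compares the 2 effects of swimming, called none of the 9 genes and 0% of all genes by edgeR. DESeq2 and limma called none of the 9 either. Clu was the only one of the 9 at an unadjusted p under 0.05 (19% of all genes were), with an effect of swimming of 0.52 in untreated and -0.80 in AOM/DSS libraries, a difference of -1.33 (SE 0.41, adjusted p = 0.147). Comparisons that use the same group are not independent, and the Model libraries enter Model against Ctrl, Model_Swim against Model and the interaction alike.

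**Figure D3:**
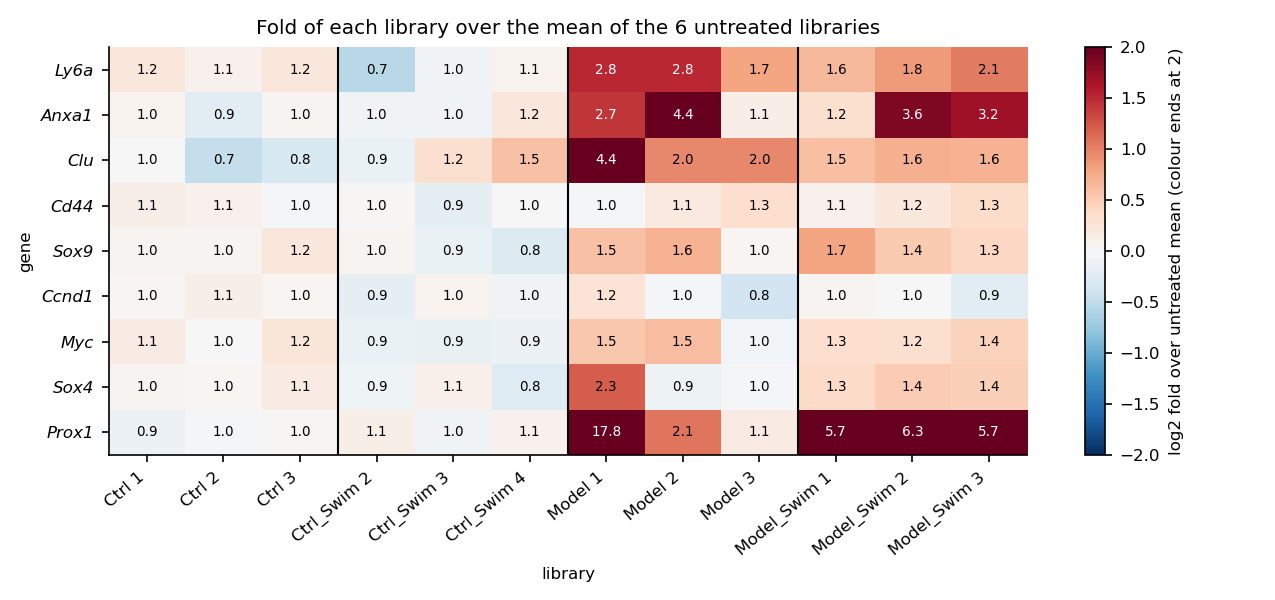
Fold of each library (columns) over the geometric mean CPM of the 6 untreated libraries for each gene (rows), from log2 CPM. Folds are printed in the cells and coloured on a log2 scale that ends at 4-fold either way. Model 1 is highest for Clu, Sox4 and Prox1, Model 2 for Anxa1, and the 3 Model_Swim libraries are alike in Clu, Sox4 and Prox1.

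The Model libraries differed from each other in these genes more than the libraries of any other group. The median over the 9 genes of the SD of log2 CPM was 0.41 in Model, against 0.08 in Ctrl, 0.17 in Ctrl_Swim and 0.13 in Model_Swim. Over all genes tested the same median was 0.19 in Model, 0.11 in Ctrl, 0.14 in Ctrl_Swim and 0.12 in Model_Swim. Within the Model group, the SD of Prox1 was at percentile 97.8 of all genes tested, that of Anxa1 at 93.5, that of Sox4 at 89.6 and that of Clu at 88.3, whereas Cd44 was at 47.4. In Model_Swim the SD of Prox1 was at percentile 33.0 and that of Anxa1 at 96.6.

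Counted by library, 8 of the 9 genes were above all 6 untreated libraries in Model 1, 7 in Model 2 and 4 in Model 3, while 26.5%, 30.6% and 27.2% of all genes tested were. In the Model_Swim libraries 1 to 3 the counts were 7, 8 and 8 of the 9 genes, against 22.1%, 21% and 21.6% of all genes. Model 3 was thus the AOM/DSS library with the fewest of these genes above all untreated libraries, and the 4 were Ly6a, Clu, Cd44 and Prox1. For Prox1 the margin was narrow, with 12.1 CPM (211 reads) in Model 3 against 11.7 CPM (214 reads) in Ctrl_Swim 2. It also held 13083 CPM of 15 genes of mature colonocytes, against 3527 CPM in Model 1, 5138 CPM in Model 2 and 14940 to 15208 CPM in the Ctrl libraries.

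Genes known from the same programmes were counted in lists written with earlier results of these data known. Of 22 genes of the fetal-like and YAP-driven repair state other than the 9 genes, 15 rose in Model against Ctrl and 1 fell, with a median log2 fold change of 1.11. Spp1, which encodes osteopontin, rose from 1.10 ± 0.582 CPM in Ctrl to 16.6 ± 21.6 CPM in Model (log2 fold change 3.91, adjusted p = 0.0145). Its levels in Model 1 to 3 were 41.5, 2.40 and 5.97 CPM, and without Model 1 its log2 fold change was 1.93 (edgeR, adjusted p = 0.0575). The keratin gene Krt19 fell from 3042 ± 245 to 2012 ± 125 CPM (-0.60, adjusted p = 0.00187). In Model_Swim against Ctrl_Swim 5 of the 22 rose and none fell, and in Model_Swim against Model none of the 22 changed by edgeR, DESeq2 or limma, with 1 at an unadjusted p under 0.05.

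Among 20 further Wnt target and crypt genes, 8 rose in Model against Ctrl and 3 fell, with a median log2 fold change of 0.74. Their summed level was 1842 CPM in Model 1 but 952 and 863 CPM in Model 2 and Model 3, against 1042 to 1131 CPM in Ctrl and 1170 to 1258 CPM in Model_Swim. Without Model 1, 3 of the 20 rose and 3 fell, with a median log2 fold change of 0.01, and without Model 1 and Model 3, 6 rose and 2 fell. Limma on log2(FPKM + 1) called 3 of the 20 in place of these 11. Notum, a secreted Wnt inhibitor that is itself a Wnt target, was at 104, 9.21 and 0.631 CPM in Model 1 to 3 and at 24.2, 27.8 and 29.7 CPM in Model_Swim 1 to 3, against 0.110 to 0.552 CPM in the untreated libraries (log2 fold change of Model against Ctrl 6.75, adjusted p = 0.00738). This order of libraries, with Model 1 highest, the 3 Model_Swim libraries next, then Model 2 and then Model 3, was also that of Prox1. Wif1, another secreted inhibitor, rose from 3.04 ± 0.732 CPM in Ctrl to 56.7 ± 80.7 CPM in Model (4.22, adjusted p = 0.0110), where Model 1 to 3 held 150, 17.2 and 3.44 CPM. Without Model 1 the log2 fold change was 3.82 (adjusted p = 0.0105) for Notum and 1.78 (adjusted p = 0.0205) for Wif1, and Olfm4 did not pass (-3.46, adjusted p = 0.0592). Olfm4, a marker of crypt base cells that is low in normal mouse colon, fell from 11.5 ± 9.09 to 1.08 ± 0.905 CPM (-3.39, adjusted p = 0.0266), and Slc12a2, a chloride transporter of crypt cells, fell from 517 ± 27.5 to 388 ± 38.5 CPM (-0.41, adjusted p = 0.00452). In Model_Swim against Ctrl_Swim 3 of the 20 rose, Notum and Wif1 among them, and none fell.

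Ccnd1 and Myc promote cell division, but genes of dividing cells did not rise with AOM/DSS. Of 15 proliferation genes none rose and 5 fell in Model against Ctrl, with a median log2 fold change of -0.24. DESeq2 also called 5 of the 15 and limma on log2(FPKM + 1) called 1. By edgeR 6 were lower without Model 1 and 3 without Model 3, with median log2 fold changes of -0.30 and -0.25. Without both libraries the median was -0.39. The largest decreases were those of Mcm6, from 105 ± 2.47 to 77.5 ± 14.0 CPM (-0.44, adjusted p = 0.0163), and Mcm5, from 70.1 ± 0.596 to 53.2 ± 5.30 CPM (-0.40, adjusted p = 0.00465), both subunits of the helicase that opens DNA for replication. In Model_Swim against Ctrl_Swim none of the 15 changed by edgeR, DESeq2 or limma, with 1 at an unadjusted p under 0.05.

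Marker genes of other cell types moved in the same comparison. Of 16 leukocyte genes 15 rose in Model against Ctrl and none fell, with sums of 872 to 949 CPM in Model, 651 to 862 CPM in Model_Swim, 375 to 626 CPM in Ctrl_Swim and 385 to 391 CPM in Ctrl. All 7 fibroblast genes rose, among them Col1a1, a collagen of connective tissue, from 219 ± 20.9 to 475 ± 85.6 CPM (log2 fold change 1.12, adjusted p = 0.00152). Of 10 genes of colon epithelium 8 fell and none rose, among them the intestinal transcription factors Cdx2 (-0.87, adjusted p = 0.00341) and Cdx1 (-0.70, adjusted p = 0.000407). Of 15 genes of mature colonocytes 5 fell, Fabp2, which encodes a fatty acid carrier, by 1.67 on the log2 scale (adjusted p = 0.00351), and 1 rose. Blood endothelium had 2 of 7 genes higher, Cdh5 and Pecam1, enteric glia had 2 of 5 genes lower, S100b and Gfap, and none of 6 smooth muscle genes changed by edgeR, DESeq2 or limma or had an unadjusted p under 0.05. For enteric glia DESeq2 called 2 genes and limma 0, and edgeR called 0 without Model 1. All 11 tested genes of pancreatic acinar cells rose, and none of them passed without Model 1 and Model 3. Without both of these libraries 9 of the 16 leukocyte genes rose and 1 of the 7 of blood endothelium, Pecam1, while without Model 3 or without both 8 genes of mature colonocytes fell. In Model_Swim against Model 0 of the 163 tested genes of all 15 lists changed by edgeR, with 47 at an unadjusted p under 0.05, while DESeq2 called 14 and limma 0. Ly6a, Anxa1 and Cd44 are made by leukocytes or stromal cells too, and the part of these cells in the results was not tested.

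**Figure D4:**
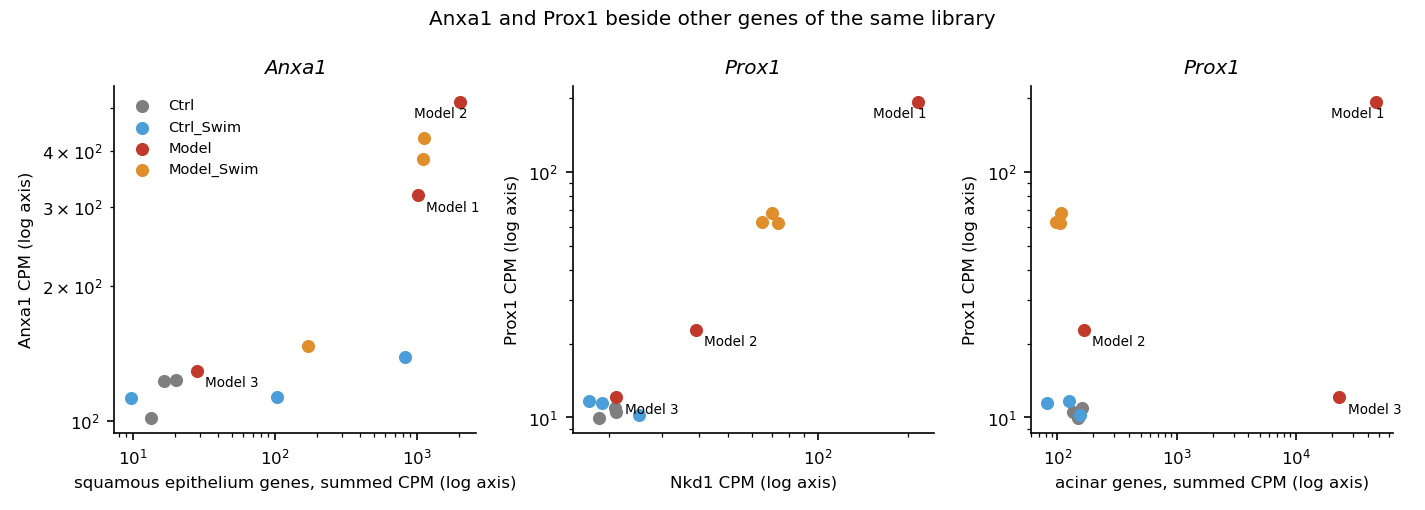
Anxa1 in each of the 12 libraries against the summed CPM of 12 squamous marker genes, and Prox1 against Nkd1 and against the summed CPM of 12 acinar marker genes (all axes in CPM on log scales, 1 point per library). The 4 libraries with 319 CPM or more of Anxa1 all hold 1021 CPM or more of squamous genes, Prox1 follows Nkd1 across libraries, and Model 3 holds 23189 CPM of acinar genes with Prox1 at 12.1 CPM.

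Nkd1, a feedback inhibitor and Wnt target, is shown beside Prox1 in the scatter plots as an example chosen after its values were seen. It stood at 216, 39.0 and 21.2 CPM in Model 1 to 3, at 64.9, 70.4 and 73.5 CPM in Model_Swim 1 to 3 and at 17.1 to 25.2 CPM in the untreated libraries. Model 1 was thus the highest library for both genes and for the acinar genes, whereas Model 3, the other library with acinar RNA, was low in both.

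For each of the 9 genes, the genes most like it were found by Pearson's r of log2 CPM over the 12 libraries among 13953 genes, as a description without a test, since the 12 libraries share their groups. Prox1 was most like Spock2, a matrix proteoglycan (r = 0.996), Prss56, a serine protease (r = 0.991), and Fam89a (r = 0.984), and Spock2 stood at 780, 64.3 and 27.2 CPM in Model 1 to 3 and at 204 to 234 CPM in Model_Swim. By ranks (Spearman's rho) these values were lower, at 0.818, 0.873 and 0.867. Prss56 stood at 0 CPM in the untreated libraries and Model 3, and at 11.6 CPM in Model 1. Anxa1 was most like Tmprss11g, a protease (r = 0.974), Arg1, which encodes arginase (r = 0.968), and Cxcl3, a chemokine (r = 0.963). Their rho was 0.901, 0.909 and 0.827. Cxcl3 stood at 0 CPM and Tmprss11g at 0 to 0.358 CPM in the untreated libraries, and both stood at 0 CPM in Model 3. Ly6a was most like Mfsd2a, a lipid transporter (r = 0.970), Tnfrsf1b, a receptor of tumour necrosis factor (r = 0.966), and Nos2, the inducible nitric oxide synthase (r = 0.964). Clu was most like Fmnl2, Lfng and Basp1 (r of 0.954 to 0.963), and Sox4 most like Knop1, Mt3 and Znrf3 (r of 0.953 to 0.978), of which Znrf3 encodes a brake on Wnt receptors and is in the list of Wnt target and crypt genes.

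Sox9 was most like Trib1, Mtfr1 and Areg (r of 0.949 to 0.955), of which Areg, an epidermal growth factor ligand, is in the list of repair genes. Myc was most like Efhd2, Litaf and Nt5e (r of 0.940 to 0.943). The likest genes of Cd44 were Adamts19, Tnfsf15 and Kdm3a (r of 0.872 to 0.896), and those of Ccnd1 were Rraga, Gtf2e2 and Ankrd39 (r of 0.875 to 0.882).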

How the data were processed

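The authors sequenced RNA of colorectal tissue, 12 libraries in 4 groups, on an Illumina HiSeq X instrument after TruSeq Stranded mRNA preparation. The study's methods name TRIzol for extraction and the labels name a mirVana kit. Reads were trimmed (Trimmomatic), aligned to GRCm38.p6 (HISAT2) and counted per gene (HTSeq-count), and the authors deposited the raw counts without normalization. They also deposited FPKM values from Cufflinks. Tool versions and the annotation release were not given in the sources used here.

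Counts were scaled by TMM in edgeR 4.0.16 (R 4.3.3) and filtered by filterByExpr (minimum count 10). One quasi-likelihood model of the 4 groups was tested in 6 comparisons, each with Benjamini-Hochberg adjustment over 15484 genes. CPM values are TMM-scaled, log2 CPM used a prior count of 2, and SE is the size of the log2 fold change divided by the root of F. The study's cutoffs require, beside the adjusted p under 0.05, a fold change over 2 or under 0.5. With 3 libraries against 3, an exact permutation test of 1 gene cannot go below 0.1, so none was used.

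Alternatives were DESeq2 1.42.0 and its size factors, no filter on low counts, a fit of only the groups compared, a replicate block, the mean log2 CPM of the acinar or squamous list as a covariate, the acinar genes left out, limma 3.58.1 on log2(FPKM + 1) and log2(FPKM + 0.1) at a mean FPKM of 0.5 or more, limma without that filter, the study's cutoffs, and leaving out each library. A fit without Model 1 and Model 3 was added after seeing the data. The 9 genes and 15 lists (164 genes) were chosen with earlier results of these data known. Named from each list are, of the genes changed in Model against Ctrl, at most the 2 that rose most and the 2 that fell most, or else the 2 most abundant. A gene that this rule names is not reported here. For each of the 9 genes the 3 likest genes are named, among genes averaging 1 CPM or more that are not gene models, pseudogenes or antigen receptor segments. Outside that rule are the squamous genes at a count of 0, and Nkd1. Code was tested on simulated data. Of 1311 windows of 100 bases in Ly6a transcripts 19 (1.45%) are shared with Ly6c1, and in the other 8 genes 0 windows are shared with another gene.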

Additional observations from a re-analysis of the deposited data

Results flagged for a closer look

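The effect of swimming on Clu had opposite directions in untreated and AOM/DSS libraries, and Clu was flagged for this difference in these same data. All 3 Ctrl_Swim libraries were above the Ctrl mean, but Ctrl_Swim 2 (69.9 CPM) lay below Ctrl 1 (77.6 CPM). All 3 Model_Swim libraries were below the Model mean of 214 CPM, and so were Model 2 (151 CPM) and Model 3 (150 CPM). The log2 difference was 0.52 in Ctrl_Swim against Ctrl, -0.80 in Model_Swim against Model, and -1.33 between these effects. That difference had an adjusted p of 0.147 in edgeR's interaction test over all genes, so that it did not pass the threshold. Without Model 1, where Clu stood at 340 CPM, the difference was -0.84 (adjusted p = 0.111). It was below 0 under all 23 alternatives, which ran from -1.56 to -0.76 with adjusted p of 0.0534 to 0.409.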

How the results depend on the processing

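In Model against Ctrl, where 4 of the 9 genes were changed, 2 were changed, Ly6a and Clu each time, when only the groups compared were fitted, with the replicate block, with the squamous covariate, and with limma on log2(FPKM + 1) with or without its filter. Leaving out 1 library gave 2 to 6. In Model_Swim against Ctrl_Swim 2 genes were changed, against 1 with the study's cutoffs, 4 with DESeq2, 6 with only the groups compared, 0 with the replicate block, 1 with the squamous covariate, 6 without Model 1 and Model 3, and 0 to 5 without 1 library. Averaged over both swimming states 6 were changed, against 8 with DESeq2, 7 with DESeq2 size factors, 7 in each of the 3 limma fits, 5 with the replicate block, 4 with the study's cutoffs, 2 with the squamous covariate and 6 to 8 without 1 library. In Model_Swim against Model 0 were changed, 0 to 1 without 1 library and 2 without Model 1 and Model 3. The interaction called 0, 0 to 1 without 1 library and 2, Sox4 and Prox1, without Model 1 and Model 3. Ctrl_Swim against Ctrl called 0 of the 9 under every alternative run. The matching counts over all genes tested are given further below.

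Estimates that turned and also passed the threshold were, in Model_Swim against Model, those of Sox4 (0.58 without Model 1 and Model 3) and Prox1. That of Prox1 was 1.87 without Model 1 (adjusted p = 0.0126) and 1.51 without both. The interaction of Prox1 turned too, to 1.77 without Model 1 (adjusted p = 0.0345) and 1.42 without both, all by edgeR. Over the fits without 1 library, Prox1 ran from -0.76 to 1.87 in Model_Swim against Model and from -0.86 to 1.77 in the interaction. The cause was not tested. Of 1278 estimates of single genes, 1113 kept direction and side of the threshold, 40 lost and 33 gained a call, 87 changed sign without a call and 5 reversed.

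Over all genes tested, Model_Swim against Model called 11 genes by edgeR and 361 by DESeq2, 49 without a filter, 2 with only the groups compared, 26 with the replicate block, 0 with the acinar and 92 with the squamous covariate, 26, 28 and 12 by the 3 limma fits, and 6 to 882 without 1 library. Ctrl_Swim against Ctrl called 150, against 658 by DESeq2, 368 with only the groups compared, 1 with the replicate block, 43 and 58 with the acinar and squamous covariates, 51, 53 and 30 by limma, 26 with the study's cutoffs and 0 to 302 without 1 library. Model_Swim against Ctrl_Swim called 802, against 1562 by DESeq2, 1289 with only the groups compared, 40 with the replicate block, 530 with the squamous covariate, 155 with the study's cutoffs and 170 to 1459 without 1 library. Model against Ctrl called 5066, against 3337 with only the groups compared, 3049 and 2707 with the acinar and squamous covariates, 1150 with the study's cutoffs and 3160 to 5620 without 1 library. It called 4322 with the replicate block, and 4519 and 4432 by limma on log2(FPKM + 1) with and without its filter. The average effect of AOM/DSS called 5175 of 15484 genes, against 2617 with the squamous covariate and 665 with the study's cutoffs. It called 5608 of 16569 genes by DESeq2, 5133 with DESeq2 size factors and 4379 with the replicate block. The 3 limma fits called 4737 and 4774 of 13851 genes and 4628 of 18399, and fits without 1 library 3986 to 5775. The interaction called 0, and 777 by DESeq2 and 0 to 716 without 1 library. Without Model 1 and Model 3 the counts were 569 for Model_Swim against Model, 604 for Ctrl_Swim against Ctrl, 2153 for Model_Swim against Ctrl_Swim and 917 for the interaction. Where 1 library was left out, or Model 2 stood alone, the fit assumes that its group varies as the others do.

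Groups share replicate numbers, but over 15 pairs of libraries with the same number the correlation of deviations from the group means ran from -0.26 to 0.56 and was over 0.1 in 4, so the numbers were not taken to pair the libraries. The replicate block changed the calls of Anxa1 and Prox1 in Model against Ctrl, Ly6a and Sox9 in Model_Swim against Ctrl_Swim, and Myc in the average (adjusted p = 0.0553). No 2 libraries of a group agreed within counting noise (chi-square per degree of freedom of 7.68 to 118). That measure pools all genes tested and was not computed for the 9 genes alone. Each of the 9 genes had at least 181 reads in every library. Whether the spread between libraries or read number limits the comparison of a single gene was not tested.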
